A study of Mus musculus with 16 samples.

Results

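The comparison described here is the difference that endurance training made in mouse skeletal muscle averaged over both genotypes of the study. The gastrocnemius, a calf muscle in which fast fibres predominate, was taken from male C57Bl6/J mice aged 20 weeks. The trained mice had run daily on a treadmill for 5 weeks, and were either Il13 knockout (Il13-/-, KO) or wild-type (WT). The untrained mice were KO or WT and had not run. Each of the 4 groups (KO trained, WT trained, KO untrained, WT untrained) held 4 mice with 1 poly(A)-selected, stranded RNA library each, so 8 trained libraries were set against 8 untrained libraries, all 16 of the series. The difference was fitted with an additive model that holds genotype as a covariate, so it describes what training did on average over KO and WT. The deposited table gives each gene's level in RPKM, which is reads scaled to gene length and to the library total. Of its 23440 genes, the 10171 that reached 1 RPKM in at least 4 of the 16 libraries were tested. The 4th-highest library of Gpr124, just inside that limit, was at 1.0004 RPKM, and that of Cth, just outside, was at 0.99993 RPKM.

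Endurance training raises the capacity of muscle to oxidise fuel. It is known to increase mitochondrial enzymes, fatty acid uptake and capillary supply, and to move fibres away from the fast glycolytic kind. Interleukin-13 is a type 2 cytokine of the immune system, and the series compares the training response of muscle with and without it.

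Library depth, solved from the steps between low RPKM values, ran from 16307025 to 20074677 reads. Il13 itself (mm10, chromosome 11, 53631323 to 53634702) had 0, 1, 0 and 1 reads in KO trained, 0 in every WT trained, 2, 1, 0 and 0 in KO untrained and 0 in every WT untrained library. A library with 0 reads could have had up to 3, equal to 0.124 to 0.153 RPKM (counting error only), so Il13 could not check the genotype labels. The listed genes held 77.6% ± 2.64 of library reads in trained and 81.1% ± 2.06 in untrained libraries (SD, n = 8 each). That difference was -3.47 percentage points (two-sided exact permutation within genotype, p = 0.0118, adjusted 0.0381 over 5 library measures). Another of these measures was the log2 share of reads on the muscle fibre gene Myh4. It differed by -0.15, with -0.05 in KO and -0.26 in WT (same permutation test, p = 0.0229, adjusted 0.0381). Total reads and the median log2 level did not pass (same test, adjusted p = 0.243 and 0.378). No extraction or sequencing batch is given for any library.

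One library stood apart, in a GC measure chosen after seeing the data. The GC-richest quartile of tested genes was set against the GC-poorest quartile, as the difference of their mean centred log2 levels in each library. In WT trained replicate 1 this GC contrast was 0.28, while the other 3 WT trained libraries lay between -0.13 and -0.06. The same library had 83.5% of its reads in listed genes, against 76.0% to 78.8% in the other 3. Without it, 972 genes changed instead of the 63 described next, 313 higher and 659 lower, and all 63 were among them. Over all libraries the GC contrast differed by -0.16 on the log2 scale, trained minus untrained (two-sided exact permutation within genotype, p = 0.0224, adjusted 0.0381). Neither that p nor its adjustment covers the choice of the measure after seeing the data. Without WT trained replicate 1 the GC contrast differed by -0.21. That library was set apart on this same measure, so no p is given for the second value.

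Training changed 63 of the 10171 tested genes (0.619%) at an adjusted p under 0.05 in limma with Benjamini-Hochberg adjustment. Of these, 26 (0.256%) were higher in trained muscle and 37 (0.364%) were lower. The changes were small: their median size was 0.27 on the log2 scale, or 1.2-fold, and the smallest was 0.16. Only 5 of the 63 genes differed by 0.5 or more, among them Aqp4, Atp1b4 and Ankrd32 upward and Cytl1 downward. For 13 of the 63 genes the 8 trained and the 8 untrained libraries had no overlap, against 0.187% of all tested genes. The 63 genes were chosen on this same contrast, which favours separation. Before adjustment 1780 genes (17.5%) had a p under 0.05, 691 higher and 1089 lower, and the median difference of all tested genes was -0.02. The direction of the whole set depended on scaling: 41.3% of the 63 genes were higher, but 61.7% of 222 genes called after quantile normalization and 63.4% of 164 called after centring each library on its median were.

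**Figure D1:**
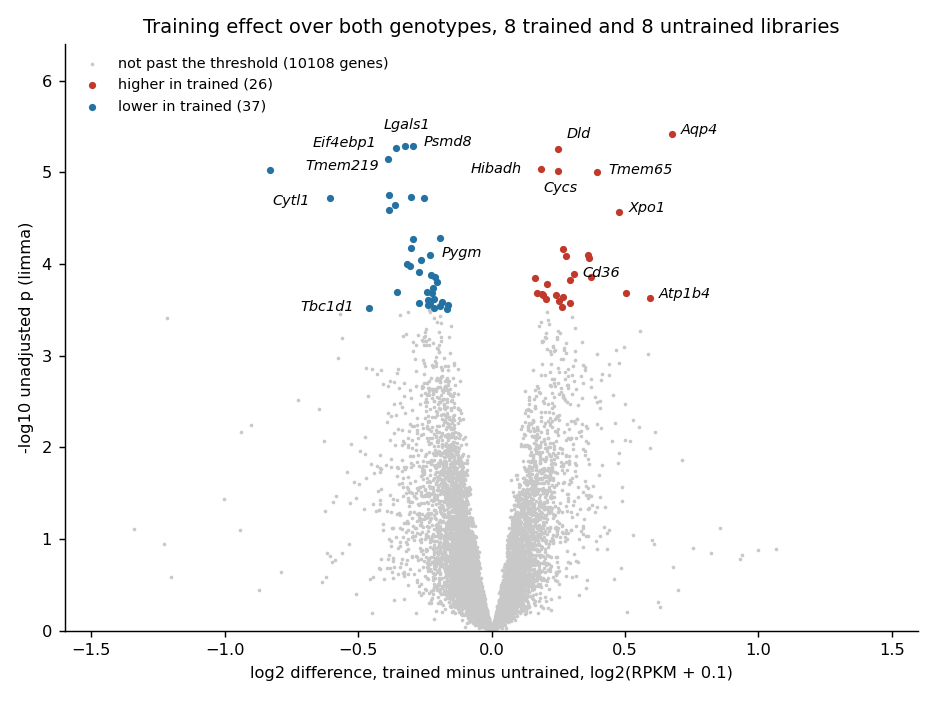
Each point is 1 of the tested genes; the horizontal axis is the log2 difference, trained minus untrained, and the vertical axis is -log10 of the unadjusted limma p. The 26 genes higher in trained muscle are red and the 37 lower are blue, with Aqp4 farthest to the right among them; 1 gene lies outside the horizontal axis.

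For most of these genes the call depended on single libraries. When each library was left out in turn, 15 of the 63 genes passed every time. Among these were Aqp4, Dld, Hibadh, Cycs and Tmem65, all higher with training, and Lgals1, Psmd8, Eif4ebp1, Tmem219, Vwa7, Pdlim7, Cytl1, Nploc4 and Pfkfb4, all lower. The other 48 passed in 1 to 15 of the 16 fits, and their highest adjusted p lay between 0.0508 and 0.121 (limma). Leaving out any library but WT trained replicate 1 gave 15 to 45 genes, fewest without WT trained replicate 3. With the listed-gene read share as a covariate, 0 genes passed in limma and 960 had an unadjusted p under 0.05; all 63 kept their direction, with a median size of 0.21 against 0.27 without it, and their lowest adjusted p was 0.262. The difference of Aqp4 was 0.63 with that covariate and 0.68 without it.

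Several of the genes that rose encode mitochondrial proteins. Cycs encodes cytochrome c, which carries electrons to cytochrome oxidase. Dld encodes dihydrolipoamide dehydrogenase, a subunit shared by the pyruvate and alpha-ketoglutarate dehydrogenase complexes. Hibadh, an enzyme of valine breakdown in the mitochondrial matrix, lies outside the naming rule and was chosen after its values were seen. Their promoters are shown because these 3 genes rose together by similar amounts in both genotypes and kept the call whichever library was left out. The sequences are from RefSeq (GRCm38.p6, minus strand in each case), 250 bases before to 50 after the gene start, at chr6:50566520-50566819 for Cycs, chr12:31351422-31351721 for Dld and chr6:52640251-52640550 for Hibadh. Capitals mark the cyclic AMP response element TGACGTCA in Cycs, from position -169 relative to the gene start, and the NRF1 motif (GCGCA and GCGC with any 1 base between them) in Dld, from position 39, and, as its reverse complement, in Hibadh, from position -66.
Cycs: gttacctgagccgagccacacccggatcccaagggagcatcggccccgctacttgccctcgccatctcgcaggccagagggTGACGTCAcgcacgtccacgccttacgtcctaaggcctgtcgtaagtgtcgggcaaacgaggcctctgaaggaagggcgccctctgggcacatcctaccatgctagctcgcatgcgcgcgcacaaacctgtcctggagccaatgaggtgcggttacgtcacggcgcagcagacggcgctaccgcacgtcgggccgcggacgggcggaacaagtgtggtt
Dld: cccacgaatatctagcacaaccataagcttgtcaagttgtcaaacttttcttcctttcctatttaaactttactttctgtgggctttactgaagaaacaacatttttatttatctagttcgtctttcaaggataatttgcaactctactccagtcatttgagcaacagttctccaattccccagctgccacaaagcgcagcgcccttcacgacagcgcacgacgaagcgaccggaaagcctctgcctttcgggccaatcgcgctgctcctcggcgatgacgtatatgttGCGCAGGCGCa
Hibadh: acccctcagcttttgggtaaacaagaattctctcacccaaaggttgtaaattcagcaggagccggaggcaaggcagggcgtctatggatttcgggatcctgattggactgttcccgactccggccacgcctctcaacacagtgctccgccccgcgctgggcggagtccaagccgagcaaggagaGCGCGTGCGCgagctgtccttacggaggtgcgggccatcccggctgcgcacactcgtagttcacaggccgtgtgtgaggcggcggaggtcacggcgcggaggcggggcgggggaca

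Both strands of each promoter were searched for 4 motifs, and a match describes letters only. Promoters were found for 19 of the 26 genes that rose and for 30 of the 37 that fell. The NRF1 motif was in 4 of the 19 (21.1%, Tmem106b, Hibadh, Dld and Adk) and in 6 of the 30 (20%), against 11.5% of the 7680 promoters of tested genes and 4.78% of all 27025. TGACGTCA was in 1 of the 19, Cycs, in 1 of the 30, Tmem219, and in 3.42% of promoters of tested genes. The ERR motif TCAAGGTCA was in none of the promoters of either group and in 0.247% of those of tested genes, and the ETS motif CCGGAAGT was in 1, that of Hccs, against 8.96%.

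Cycs (mm10, chromosome 6, 50562563 to 50566474) stood at 126, 124, 127 and 118.04 RPKM in KO trained and at 116, 125, 128 and 136 RPKM in WT trained libraries. In KO untrained libraries it stood at 108, 99.9, 105 and 97.3 RPKM, and in WT untrained libraries at 106, 116.6, 103 and 106 RPKM. The KO groups did not overlap, whereas 1 WT untrained value lay just above the lowest WT trained value. Cycs rose by 0.25 on the log2 scale (SE 0.04, limma adjusted p = 0.0102), by 0.27 in KO and by 0.23 in WT.

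Dld (chromosome 12, 31331562 to 31351437) was at 99.3, 95.9, 97.8 and 95.5 RPKM in KO trained and at 83.3, 98.1, 94.4 and 98.8 RPKM in WT trained libraries. Untrained values were 80.7, 83.6, 82.9 and 76.4 RPKM in KO and 81.5, 80.6, 76.2 and 79.8 RPKM in WT. All trained libraries but WT trained replicate 1 lay above every untrained library. Dld rose by 0.25 (SE 0.04, limma adjusted p = 0.0102), by 0.26 in KO and by 0.23 in WT.

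Hibadh (chromosome 6, 52546230 to 52640300) held between 65.8 and 72.1 RPKM in trained libraries with a median of 68.6, and between 59.3 and 62.1 RPKM in untrained libraries with a median of 59.9. The 8 trained values were all above the 8 untrained ones. The rise was 0.18 (SE 0.03, limma adjusted p = 0.0102), or 1.14-fold. A small RNA gene, Gm24355, lies within Hibadh exons on the same strand.

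Further mitochondrial genes passed with less margin. Atp5f1, a stalk subunit of ATP synthase, averaged 294 ± 11.6 RPKM in trained and 261 ± 13.6 RPKM in untrained libraries (SD, n = 8 each). Hccs, which attaches heme to cytochrome c, averaged 8.85 ± 0.670 RPKM in trained and 7.46 ± 0.404 RPKM in untrained libraries, with no overlap between them. Ghitm, an inner-membrane protein, averaged 134 ± 5.12 RPKM in trained and 120 ± 3.48 RPKM in untrained libraries, again with no overlap. The log2 rises were 0.17 for Atp5f1, 0.24 for Hccs and 0.16 for Ghitm, at limma adjusted p of 0.0483, 0.0483 and 0.0425. Tmem65, a protein of the mitochondrial inner membrane, was at 35.8 to 44.6 RPKM in trained libraries (median 39) and at 25 to 37 RPKM in untrained libraries (median 30.3), and rose by 0.40 (SE 0.06, adjusted p = 0.0102). Only 1 untrained library, KO untrained replicate 3, exceeded the lowest trained value of Tmem65. Fam210a and Atad1, both mitochondrial proteins, rose by 0.27 and 0.19 (limma adjusted p = 0.0336 and 0.0483). Hccs, Ghitm and Atad1 are outside the naming rule and were chosen after their values were seen. Reads of Atp5f1, Hccs and Fam210a cannot be told apart from those of genes on the opposite strand that overlap their exons, since the use of strand in counting is not given.

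Fuel uptake was represented by Cd36 and fuel use by Oxct1. Cd36 (chromosome 5, 17781690 to 17888959), a membrane carrier of long-chain fatty acids, was at 82.2, 74.0, 94.2 and 88.0 RPKM in KO trained and at 88.2, 88.3, 83.2 and 92.9 RPKM in WT trained libraries. Untrained values were 67.7, 71.1, 82.8 and 68.1 RPKM in KO and 77.7, 62.4, 61.7 and 67.8 RPKM in WT. The WT groups did not overlap and the KO groups did, through KO untrained replicate 3. Cd36 rose by 0.31 (SE 0.06, limma adjusted p = 0.0425), by 0.22 in KO and by 0.39 in WT. Oxct1, which starts the use of ketone bodies, was at 107, 103, 120 and 107 RPKM in KO trained and at 128, 122, 123 and 126 RPKM in WT trained libraries, against 102.03, 105, 110 and 88.7 RPKM in KO untrained and 83.7, 96.5, 87.5 and 90.6 RPKM in WT untrained libraries. The KO groups overlapped and the WT groups lay far apart. Oxct1 passed the additive test (0.29, SE 0.06, limma adjusted p = 0.0483), yet its difference was 0.11 in KO and 0.48 in WT. BC037032 overlaps Oxct1 on the opposite strand, and its reads cannot be told apart from those of Oxct1.

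Around these genes, few members of the mitochondrial lists passed, and the list medians were nearer 0 in KO than in WT for fatty acid, citric acid cycle, respiratory chain and import genes (not tested). In fatty acid uptake and oxidation, 1 of 40 tested genes passed, Cd36, and 31 of 40 lay above 0, with a median of 0.16 (0.02 in KO and 0.25 in WT, 23 of 40 with 1 sign in both), against 41.7% above 0 and a median of -0.02 over all tested genes. Etfa passes electrons from fatty acid oxidation toward the respiratory chain, and Acsl1 activates fatty acids. Etfa and Acsl1 were at 0.22 and 0.27 (limma adjusted p = 0.0804 and 0.0963). Etfa was at 0.07 in KO and 0.37 in WT, and Acsl1 at 0.07 in KO and 0.47 in WT; for both, the KO minus WT difference had an unadjusted limma p under 0.05 (0.00628 and 0.00607, adjusted 0.526). In the citric acid cycle and pyruvate entry, 1 of 25 passed, Dld, and 23 lay above 0 (median 0.09, with 0.02 in KO and 0.14 in WT). In the respiratory chain and ATP synthase, 2 of 75 passed, Cycs and Atp5f1, and 47 lay above 0 (median 0.03, with -0.03 in KO and 0.06 in WT, and -0.002 without WT trained replicate 1). The respiratory chain median was 0.15 with the GC contrast as a covariate and 0.14 with the listed read share. In mitochondrial import, dynamics and biogenesis 0 of 39 passed in limma, with 14 higher and 2 lower at an unadjusted p under 0.05 and medians of 0.003 in KO and 0.09 in WT. Its members Hspd1, a matrix chaperone, and Dnm1l, the fission GTPase, were at 0.21 and 0.26 (adjusted p = 0.0593 and 0.0652). In the mitochondrial ribosome 0 of 65 passed in limma, with 3 higher and 2 lower at an unadjusted p under 0.05 and a median of -0.001 (-0.07 in KO and 0.07 in WT), which was 0.03 after quantile normalization, 0.10 with the GC contrast and 0.09 with the listed read share as a covariate.

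Among the genes that passed, the largest rise on the log2 scale was that of Aqp4 (chromosome 18, 15389394 to 15403684), the water channel of fast muscle fibre membranes. It was at 5.48, 3.74, 5.28 and 4.11 RPKM in KO trained and at 3.92, 5.78, 5.09 and 5.12 RPKM in WT trained libraries. In KO untrained libraries it was at 2.88, 3.45, 3.14 and 2.42 RPKM, and in WT untrained libraries at 2.45, 3.46, 3.16 and 2.76 RPKM. Every trained library was above every untrained one in both genotypes. Aqp4 rose by 0.68 (SE 0.10, limma adjusted p = 0.0102), or 1.6-fold, by 0.62 in KO and by 0.73 in WT. Atp1b4, a muscle protein related to sodium pump beta subunits and found at the nuclear membrane, rose by 0.59 (SE 0.13, adjusted p = 0.0483). Its levels were low, at 0.802 to 1.23 RPKM in trained and 0.50 to 0.941 RPKM in untrained libraries. Atp1b2, a sodium pump beta subunit outside the naming rule and chosen after its values were seen, fell by 0.24 (adjusted p = 0.0494), with medians of 72.7 RPKM in trained and 86.0 RPKM in untrained libraries. After quantile normalization Atp1b2 did not pass (-0.19, adjusted p = 0.118).

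Some risers act in the nucleus or on messenger RNA. Xpo1 (chromosome 11, 23256041 to 23297597), the export receptor that carries proteins out of the nucleus, was at 5.58, 6.44, 5.67 and 5.37 RPKM in KO trained and at 3.29, 4.97, 4.68 and 4.44 RPKM in WT trained libraries. It was at 3.62, 4.09, 3.27 and 4.28 RPKM in KO untrained and at 3.66, 3.03, 3.12 and 3.45 RPKM in WT untrained libraries. The KO groups did not overlap, and in WT the replicate 1 that stood apart was the only trained library among the untrained values. Xpo1 rose by 0.48 (SE 0.09, limma adjusted p = 0.0162), and it was the sole gene to pass among 44 karyopherins and nuclear pore proteins, whose median was -0.01. Ireb2, an iron-responsive RNA-binding protein, was at 3.67 to 5.49 RPKM in trained (median 4.86) and 3.5 to 4.26 RPKM in untrained libraries (median 3.85), with a rise of 0.29 (adjusted p = 0.0434), 0.42 in KO and 0.17 in WT. It was the only one of 14 tested iron-regulation genes to pass. Creb1, the cyclic AMP response factor, was at 1.48 to 1.82 RPKM in trained and 1.13 to 1.47 RPKM in untrained libraries, and rose by 0.36 (SE 0.07, adjusted p = 0.0346) without overlap.

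**Figure D2:**
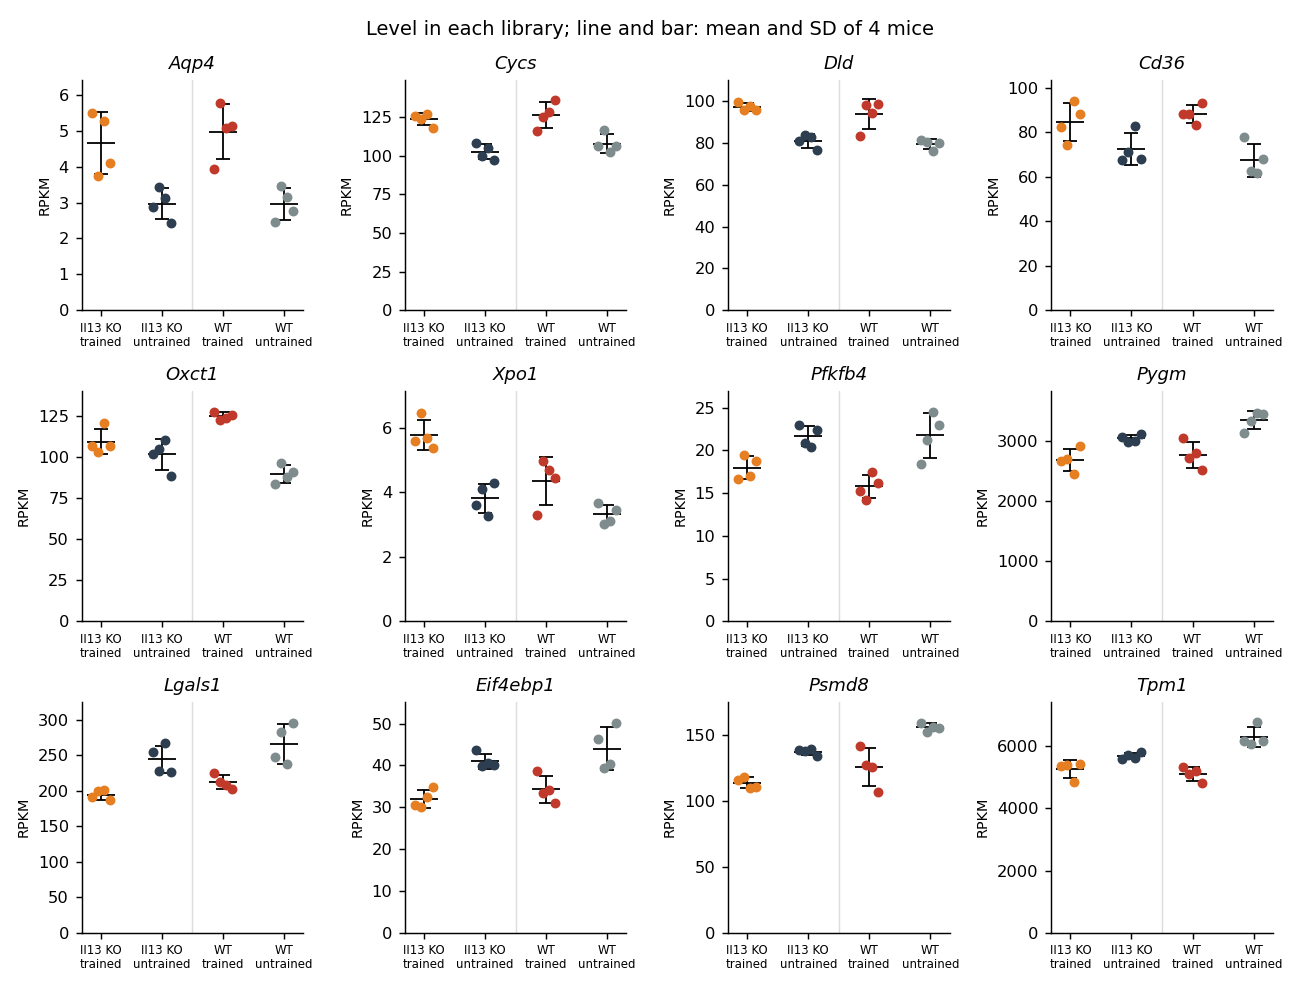
Level in RPKM of 12 changed genes in each library, by genotype and training; points are libraries and the line and bar are the mean and SD of 4 mice. Aqp4, Lgals1, Eif4ebp1 and Tpm1 show no overlap between the 8 trained and the 8 untrained libraries.

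Genes of glucose and glycogen use were among those that fell. Pfkfb4 (chromosome 9, 108991902 to 109032225), a bifunctional enzyme that sets the level of an activator of glycolysis, was at 16.6, 19.5, 17.1 and 18.8 RPKM in KO trained and at 15.3, 14.2, 17.4 and 16.2 RPKM in WT trained libraries. Untrained values were 23.0, 20.9, 20.4 and 22.4 RPKM in KO and 18.4, 21.3, 24.5 and 23.0 RPKM in WT. Neither genotype's groups overlapped. Pfkfb4 fell by 0.36 (SE 0.06, limma adjusted p = 0.0155).

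Pygm, the muscle glycogen phosphorylase that releases glucose units from glycogen, was at 2451 to 3039 RPKM in trained libraries (median 2708) and at 2984 to 3463 RPKM in untrained libraries (median 3123). Within each genotype its groups did not overlap. Pygm fell by 0.23 (SE 0.05, limma adjusted p = 0.0346), and after quantile normalization its difference was -0.06 (adjusted p = 0.270). Gpi1, the glucose phosphate isomerase, averaged 314 ± 24.3 RPKM in trained and 367 ± 26.1 RPKM in untrained libraries, and fell by 0.22 (adjusted p = 0.0483); Gm26762 overlaps it on the opposite strand. Tbc1d1, a regulator of glucose transporter traffic, was at 11.5 to 19.3 RPKM in trained (median 14.5) and 17.9 to 24.2 RPKM in untrained libraries (median 19.8), and fell by 0.46 (SE 0.10, adjusted p = 0.0497; after quantile normalization 0.0527). In the glycolysis and glycogen list, 3 of 36 genes passed, Pfkfb4, Pygm and Gpi1, all lower, and 26 lay below 0. The list's median was -0.10, against -0.02 for all tested genes, and -0.03 after quantile normalization.

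Tpm1 and Tnnc2, 2 contractile genes of fast fibres, fell by small fractions of very high levels. Tpm1 (chromosome 9, 67022593 to 67049213), the alpha tropomyosin of fast muscle, was at 5370, 5407, 4844 and 5444 RPKM in KO trained and at 5336, 5127, 5204 and 4814 RPKM in WT trained libraries. It was at 5586, 5728, 5640 and 5822 RPKM in KO untrained and at 6168, 6082, 6784 and 6165 RPKM in WT untrained libraries. All trained values were below all untrained ones. Tpm1 fell by 0.21 (SE 0.04, limma adjusted p = 0.0441), with -0.11 in KO and -0.30 in WT. Tnnc2, the calcium sensor of fast troponin, averaged 9598 ± 371 RPKM in trained and 10793 ± 643 RPKM in untrained libraries, and fell by 0.17 (adjusted p = 0.0498); Ube2c overlaps it on the opposite strand. Quantile normalization, which fixes the values at the top of each library, left differences of 0 for Tpm1 (adjusted p = 1) and -0.01 for Tnnc2 (adjusted p = 0.796).

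In the fast glycolytic fibre list, 3 of 19 genes passed, Tpm1, Tnnc2 and Pygm, all lower. At an unadjusted p under 0.05, 16 were lower and 1 was higher, and the list's median was -0.16, or -0.01 after quantile normalization. In the slow and oxidative fibre list, 0 of 19 passed in limma, with 5 higher and 0 lower at an unadjusted p under 0.05. That list's median of 0.31 joined -0.20 in KO and 0.67 in WT, and only 4 of its 19 genes had the same sign in both. Myh2, the type IIA myosin heavy chain of this list, was at -0.10 in KO and 0.72 in WT. In bulk muscle, fewer fibres of a type and less RNA per fibre cannot be told apart.

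Single genes of protein breakdown and of translation control also fell. Psmd8 (chromosome 7, 29174187 to 29180673), a subunit of the proteasome's regulatory particle, was at 116, 118.4, 110 and 111 RPKM in KO trained and at 142, 128, 125 and 107 RPKM in WT trained libraries, against 138, 138, 139 and 134 RPKM in KO untrained and 159, 152, 156 and 155 RPKM in WT untrained libraries. Trained values were below untrained ones in each genotype. Psmd8 fell by 0.29 (SE 0.05, limma adjusted p = 0.0102), with -0.27 in KO and -0.32 in WT. It was the only one of the 31 listed proteasome genes to pass, and 29 of the 31 lay below 0, 18 of them at an unadjusted p under 0.05. The proteasome median was -0.10, against -0.02 for all tested genes, and -0.05 after quantile normalization.

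Nploc4, a cofactor of the segregase that pulls ubiquitin-tagged proteins apart from their partners, was at 16.6 to 21.1 RPKM in trained (median 18.8) and 21.3 to 23.8 RPKM in untrained libraries (median 22.6), and fell by 0.25 (SE 0.04, limma adjusted p = 0.0139) without overlap. Adrm1, a ubiquitin receptor of the proteasome that was not on the proteasome list, averaged 53.7 ± 3.70 RPKM in trained and 62.2 ± 3.42 RPKM in untrained libraries. It fell by 0.21 (adjusted p = 0.0425). Ubb, a ubiquitin gene, averaged 545 ± 55.5 RPKM in trained and 637 ± 32.5 RPKM in untrained libraries, and fell by 0.23 (adjusted p = 0.0483). These 3 genes are outside the naming rule and were chosen after their values were seen.

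Eif4ebp1 (chromosome 8, 27260327 to 27275656), a repressor of cap-dependent translation, was at 30.6, 30, 32.4 and 34.8 RPKM in KO trained and at 38.6, 33.4, 34.2 and 31 RPKM in WT trained libraries. Untrained values were 43.6, 39.8, 40.5 and 40 RPKM in KO and 46.3, 39.4, 40.4 and 50.1 RPKM in WT. No trained value reached the lowest untrained one, and the fall was 0.36 in each genotype (pooled SE 0.06, limma adjusted p = 0.0102). It was the sole gene to pass among 22 atrophy and FoxO genes, of which 20 lay below 0 (median -0.14, but -0.03 with the GC contrast and 0.01 with the listed read share as a covariate). Trim63, a muscle ubiquitin ligase of that list, was at -0.46 (adjusted p = 0.0951). For the cytosolic ribosome 0 of 78 genes passed in limma, with 0 higher and 28 lower at an unadjusted p under 0.05. Its median was -0.10, and it was 0.001 with the GC contrast as a covariate and 0.04 with the listed read share.

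The remaining genes that fell in every leave-out fit have varied roles. Lgals1 (chromosome 15, 78926725 to 78930465), the sugar-binding protein galectin-1, was at 191, 199, 202 and 186 RPKM in KO trained and at 226, 212, 208 and 203 RPKM in WT trained libraries. It was at 254, 228, 267 and 227 RPKM in KO untrained and at 248, 284, 237 and 296 RPKM in WT untrained libraries. The highest trained library, WT replicate 1, was just below the lowest untrained one. Lgals1 fell by 0.32 (SE 0.05, limma adjusted p = 0.0102), equally in KO and WT. Cytl1, a small secreted protein, was at 2.34 to 3.98 RPKM in trained (median 3.13) and 4.01 to 5.88 RPKM in untrained libraries (median 4.81), and fell by 0.61 (SE 0.10, adjusted p = 0.0139). Pdlim7, an actin-associated LIM protein, was at 59.2 to 75.9 RPKM in trained (median 62.5) and 71.3 to 89.8 RPKM in untrained libraries (median 78.6), and fell by 0.30 (adjusted p = 0.0139).

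Tmem219, a membrane protein described as a receptor of an insulin-like growth factor binding protein, was at 4.64 to 6.25 RPKM in trained (median 5.29) and 5.90 to 7.84 RPKM in untrained libraries (median 7.17). It fell by 0.39 (SE 0.06, limma adjusted p = 0.0102). Vwa7 was at 2.93 to 3.81 RPKM in trained (median 3.35) and 3.79 to 4.87 RPKM in untrained libraries (median 4.50), and fell by 0.38 (adjusted p = 0.0139). Zrsr1, an imprinted gene related to splicing factors, passed in 15 of the 16 leave-out fits. It was at 62.5 to 106 RPKM in trained (median 75.9) and 89.0 to 115 RPKM in untrained libraries (median 101.5), and fell by 0.38 (SE 0.07, adjusted p = 0.0162). Tmem219, Vwa7 and Zrsr1 each overlap a gene on the opposite strand (Gm20650, Sapcd1 and Commd1), whose reads cannot be told apart from theirs.

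All 63 genes had the same sign in both genotypes, against 57.8% of all tested genes, but the additive model chose them for a common difference. The median size of their differences was 0.27 in KO and 0.28 in WT, and 36 of the 63 were smaller in KO. In KO the trained and untrained groups were fully separate for 49 of the 63 genes (9.43% of all tested genes), and in WT for 37 (6.37%). The choice of these genes by their training p favours such separation, so it is not independent evidence. Tested within 1 genotype, training changed 0 genes in KO at an adjusted p under 0.05 in limma (1398 unadjusted, 13.7%) and 19 in WT (1202 unadjusted, 11.8%), and 4 of those 19 were among the 63. The difference of the responses, KO minus WT, passed for 0 genes in limma, with 854 at an unadjusted p under 0.05 (8.4%) and a lowest adjusted p of 0.526; voom on the recovered reads also gave 0. Of the 63, 5 had an unadjusted p under 0.05 for it. That share was no larger than the 8.4% of all tested genes, and none of the 5 passed after adjustment. By estimate only, the KO response was the smaller for Oxct1 (-0.37, SE 0.10), Hccs (-0.27, SE 0.09) and, for a fall, Tpm1 (0.18, SE 0.08). By the same estimates it was the larger for Ireb2 (0.25, SE 0.11) and Dlgap4 (-0.21, SE 0.09).

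**Figure D3:**
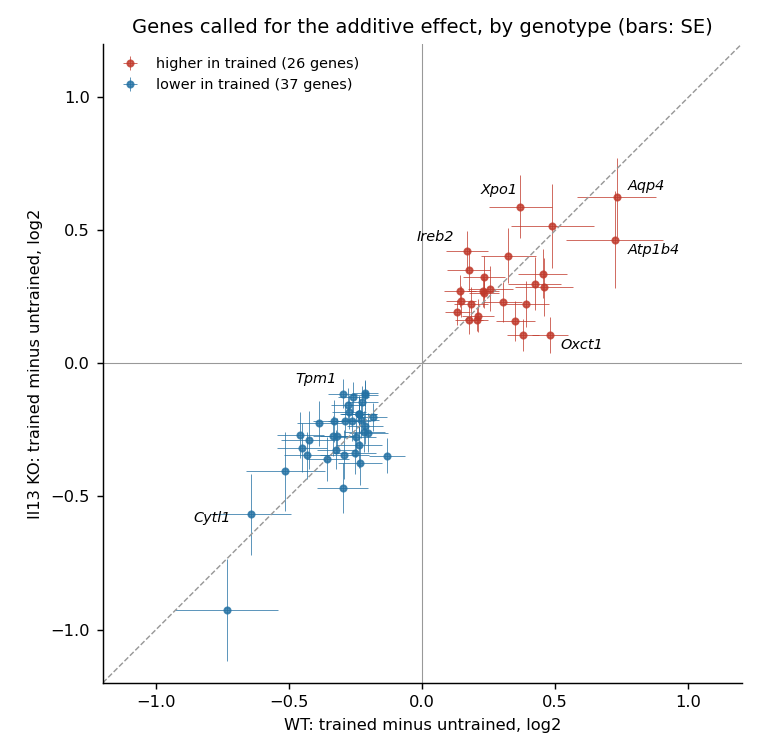
Training difference (log2, trained minus untrained) in Il13 KO on the vertical axis and in WT on the horizontal axis for the 63 genes, with SE bars and a dashed line of equal differences. All points lie at the lower left or upper right, and Oxct1 and Tpm1 lie on the side where the KO difference is nearer 0.

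In some lists the medians of the genotypes lay on opposite sides of 0. Collagen and extracellular matrix had 0 of 43 genes past the limma threshold, 1 higher and 0 lower at an unadjusted p under 0.05, and medians of -0.25 in KO and 0.03 in WT. The collagen median over both genotypes was -0.07, but 0.08 with the GC contrast and 0.09 with the listed read share as a covariate. Angiogenesis had 0 of 18, 2 higher and 0 lower unadjusted, and medians of -0.13 in KO and 0.20 in WT. These genotype differences were not tested for the lists. Immediate early genes, with both genotypes below 0 (-0.19 in KO and -0.12 in WT), had 0 of 18, 0 higher and 2 lower unadjusted. Their median of -0.19 was -0.01 with the GC contrast and 0.13 with the listed read share as a covariate.

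Markers of other cell types were measured beside the muscle genes. In limma 0 of their 93 tested members passed, with 2 higher and 8 lower at an unadjusted p under 0.05. Over all 10171 tested genes 0.619% passed, and 17.5% had an unadjusted p under 0.05, 691 higher and 1089 lower. A share of 0.619% leaves room for 0 in 93, so that count does not show these markers unchanged. Summed over each list, trained libraries had 111 to 296 RPKM of tendon markers, against 139 to 282 RPKM in untrained libraries. The same sums were 98.2 to 215 and 115 to 231 RPKM for macrophage, 293 to 400 and 307 to 389 RPKM for endothelium, 1083 to 1814 and 1263 to 2028 RPKM for adipocyte, and 34.4 to 98.7 and 49.9 to 146.1 RPKM for Schwann cell and nerve markers, trained before untrained. Smooth muscle and pericyte markers summed to 133 to 192 RPKM in trained and 142 to 184 RPKM in untrained libraries. That list had the most members at an unadjusted p under 0.05, 1 higher and 3 lower, and 11 of 12 lay below 0. Its median was -0.08, and it was 0.06 with the GC contrast and 0.03 with the listed read share as a covariate. Of the fat markers, Ucp1 was at 0 in every library. Tendon (0.21, with -0.30 in KO and 0.74 in WT), adipocyte (-0.15, with -0.47 and 0.31) and Schwann cell medians (-0.31, with -0.64 and -0.02) lay on different levels in KO and WT, and these differences were not tested. The Schwann cell median turned to 0.13 with the GC contrast and 0.12 with the listed read share as a covariate. The adipocyte median turned to 0.09 with the GC contrast, to 0.02 without KO trained replicate 4 and to 0.04 without KO untrained replicate 3. Muscle fibre markers summed to 48691 to 56545 RPKM in trained and 54331 to 61090 RPKM in untrained libraries, so the labelled tissue was present in all. Their part in the gene results was not tested.

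**Figure D4:**
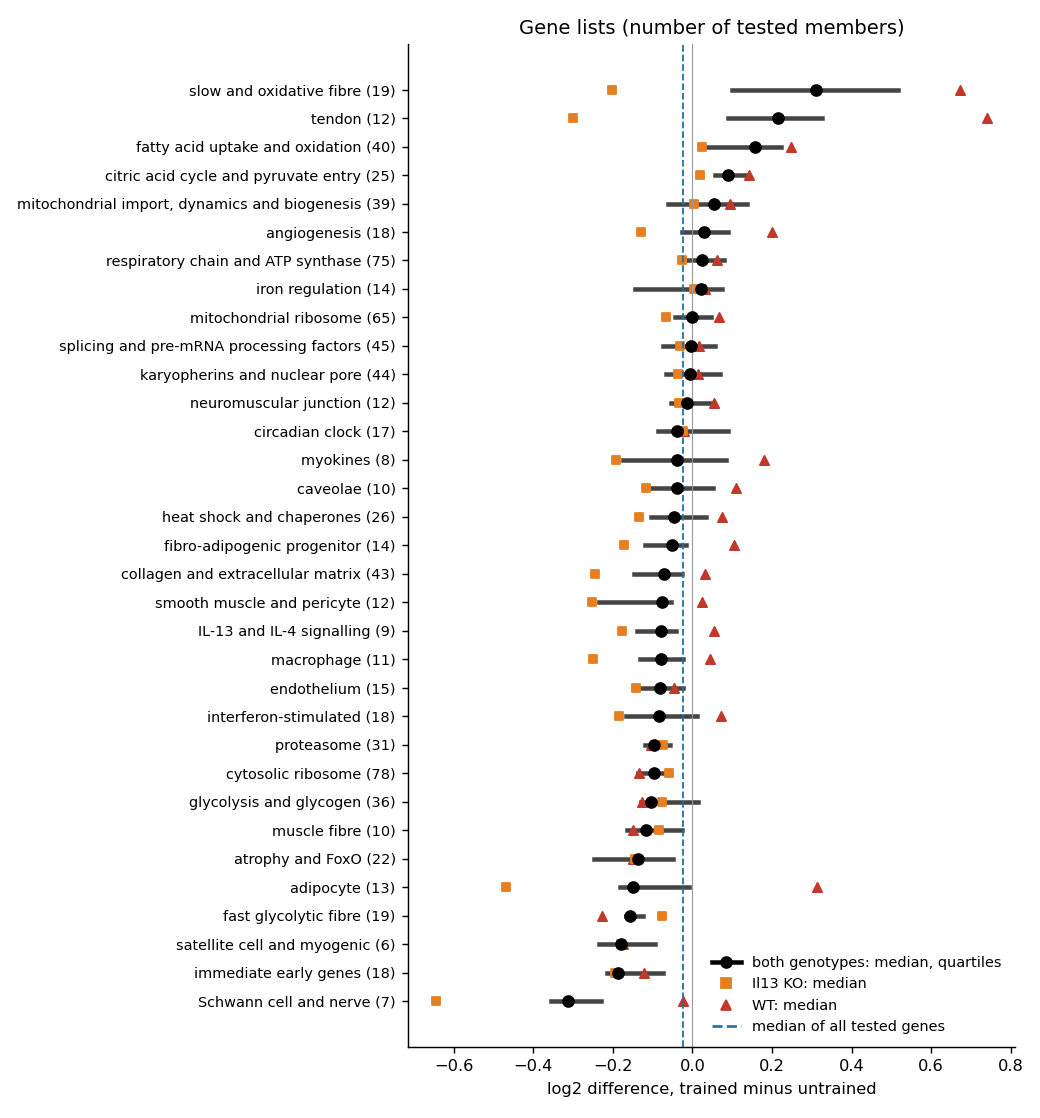
Median log2 difference, trained minus untrained, of the tested members of each gene list (black point with quartile bar), with the median in Il13 KO (orange square) and in WT (red triangle) and the median of all tested genes (dashed line at -0.02). The slow and oxidative fibre, tendon and adipocyte lists show the genotypes on opposite sides of 0, while the proteasome and atrophy lists show them together.

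Genes that rose and genes that fell differed in base composition. Of the 25 genes that rose and had a GC value, 22 were in the lowest GC quartile of tested genes (at or below 45.1%) and 1 was in the highest. Of the 37 that fell, 20 were in the highest quartile (at or above 54.6%) and 2 in the lowest. Median GC content was 40.6% for genes that rose, 54.8% for those that fell and 50% for all 9631 tested genes with a value. Over all tested genes the median difference was -0.09 in the highest quartile and 0.06 in the lowest. The library GC contrast differed, trained minus untrained, by -0.23 in KO, where the groups did not overlap (two-sided exact permutation p = 0.0286, the smallest 4 against 4 allow). In WT it differed by -0.09 (exact permutation p = 0.429). These p do not cover the choice of the measure after seeing the data.

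With the GC contrast of each library as a covariate, chosen after seeing the data and computed from the same levels, all 63 genes kept their direction and 23 passed, while 11 had a size smaller by over 1.5 times. The 12 that passed upward were Aqp4, Dld, Hibadh, Cycs, Tmem65, Xpo1, Cd36, Oxct1, Atp5f1, Hccs, Adk and Mat2b, of which Xpo1 was at 0.25, against 0.48 without the covariate. The 11 that passed downward included Pfkfb4, Tpm1, Psmd8, Nploc4, Lgals1, Eif4ebp1, Pdlim7, Tmem219, Vwa7 and Synm. Others missed the threshold with differences of similar size, among them Atp1b4 at 0.64 (limma adjusted p = 0.0541), Tbc1d1 at -0.44 (adjusted p = 0.113), Pygm at -0.19 (adjusted p = 0.0608) and Zrsr1 at -0.31 (adjusted p = 0.0564). Cytl1 was at -0.47 (adjusted p = 0.0582) and Creb1 at 0.25 (adjusted p = 0.105), while Ireb2 was at 0.16 (adjusted p = 0.128), against 0.29 without the covariate. In all, 194 genes passed under it, 171 higher and 23 lower. The median of all tested genes was 0.04 with the GC contrast and 0.05 with the listed read share as a covariate, and of the 25 list medians below 0 without a covariate, 18 were above 0 with the GC contrast and 19 with the listed read share. Of the 15 genes that passed in every leave-out fit, 14 also passed with the covariate.

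**Figure D5:**
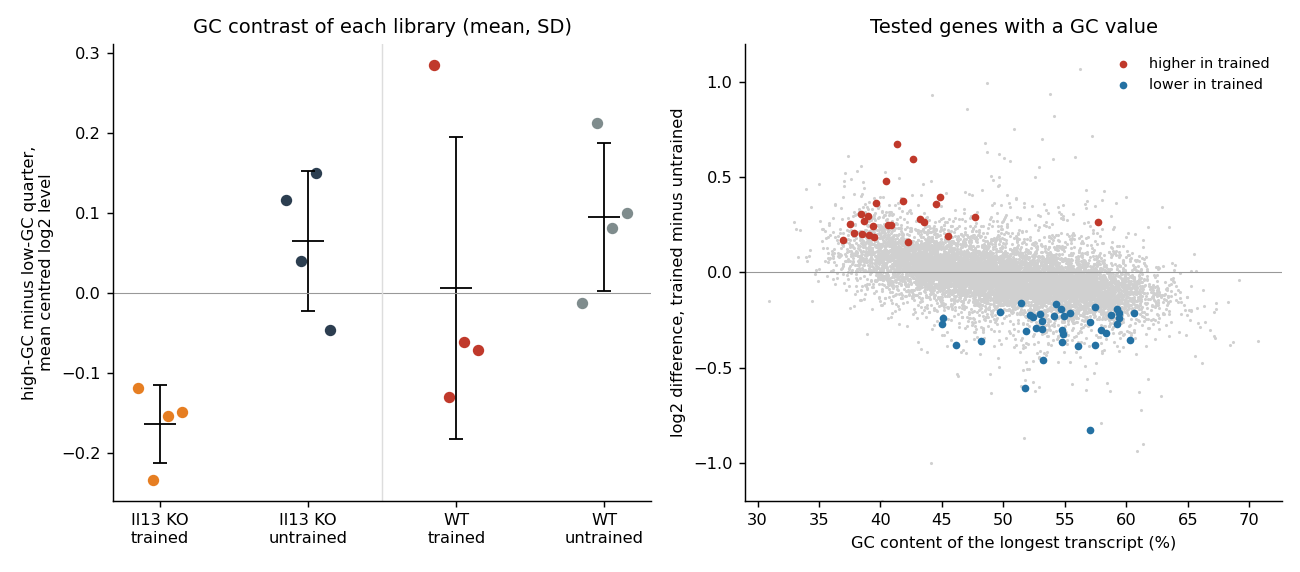
Left, the GC contrast of each library (log2, GC-rich minus GC-poor quartile of tested genes) by group, with mean and SD of 4 mice; right, the log2 training difference of each tested gene against the GC content of its longest transcript in percent, leaving out 4 genes outside the axes. WT trained replicate 1 stands at 0.28 on the left, and on the right the red genes (higher in trained) gather at low and the blue genes (lower) at high GC.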

How the data were processed

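The authors deposited RPKM per gene for each of the 16 libraries, per the file headers. The submitters' processing notes name mm10 as build; aligner, counter, annotation and strand setting were not given in the sources used here. The design allowed for raw counts or normalized values, and the normalized form was used. Levels were tested as log2(RPKM + 0.1) with limma 3.58.1 (mean-variance trend, robust moderation with statmod 1.5.0, R 4.3.3), additively for training and genotype over all 16 libraries, two-sided, with Benjamini-Hochberg adjustment over 10171 genes and a threshold of 0.05. All differences are on that log2 scale and understate the fold of genes at low levels. Within-genotype differences and the difference of responses came from a fit with 1 mean per group.

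Whole reads recovered from the RPKM steps (100% of 240199 values above 0, tolerance 0.01 read, 17402 genes) gave the library depths, and voom on these reads was an alternative that called 76 genes. Tested on simulated data of 10102 genes for this comparison, the fit found 53.1%, 79.6% and 92% of genes changed by 1.25, 1.5 and 2 times. Of 9905 unchanged genes it called 6.

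The genes compared and the 34 gene lists were chosen with earlier results of these data known. The text names the largest changes, up to 15 a direction, of genes past the threshold with 1 sign in both genotypes, up to 3 members of each list with at least 5 tested genes by smallest p, the 3 genes in each direction with the smallest p for the difference of responses, and Il13; unnamed gene models were skipped. The choice of which to print was made with their values in view, and 1 gene is not reported here. GC content (longest transcript) and exon overlaps were taken from GENCODE M21 (GRCm38), with a GC value for 94.7% of tested genes. The smallest p that the permutation test within genotype allows is 0.000408. Python 3.11.15, NumPy 2.4.6, pandas 2.3.3 and matplotlib 3.10.9 were used for reads, summaries and plots.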

Additional observations from a re-analysis of the deposited data

Results flagged for a closer look

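Within each group of 4, a library was set apart when its gap to the nearest other exceeded 0.829 of the group's range, which chance alone gives in about 1 of 20 groups. Over 37 measures, each examined in all 4 groups, 11 values met this. WT trained replicate 1 had a GC contrast of 0.28, against -0.13 to -0.06 in the other 3. WT untrained replicate 1 had 79.9% of its reads in listed genes, against 82.9% to 83.3% in the other 3.

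The other 9 were levels of single genes. Tmem219 was at 4.64 RPKM in WT trained replicate 2, against 5.26 to 5.38 in the other 3. Tmem65 was at 25 RPKM and Tpm1 at 6784 RPKM in WT untrained replicate 3, against 30.1 to 30.9 and 6082 to 6168 RPKM in the others of that group. Adrm1 was at 66.1 RPKM in WT untrained replicate 2 (63.8 to 63.9 in the others) and Fam210a at 13.6 RPKM in WT untrained replicate 1 (12.3 in the others). Tpm1 was at 4844 RPKM and Atp1b2 at 68.2 RPKM in KO trained replicate 3, against 5370 to 5444 and 72.6 to 73.4 RPKM. Ireb2 was at 4.26 RPKM (3.80 to 3.87 in the others) and Tbc1d1 at 24.2 RPKM (17.93 to 17.97 in the others) in KO untrained replicate 4.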

How the results depend on the processing

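Against the 63 genes reported, the count was 222 after quantile normalization, 164 after centring on the library median, 23 without a filter on low values, 1.2e+02 with a filter at 5 RPKM (45 higher and 73 lower, 2.06% of 5727 genes tested), 25 without the genotype covariate, 1082 with library weights, 0 with the listed read share as a covariate, 194 with the GC contrast as a covariate (chosen after seeing the data) and 2 without both KO libraries numbered 3 (Tmem65 and Tmem219). With the replicate number as a block the count was 23. Same-numbered deviations from the group mean correlated by -0.18 to 0.44 with 6 of 24 pairs over 0.1, and different-numbered ones by -0.39 to 0.21. Between trained and untrained libraries, same-numbered ones correlated by 0.052 to 0.44 in KO (3 of 4 over 0.1) and by -0.11 to 0.11 in WT. Within genotype, 7 of 16 libraries correlated best with their own number. No label says what a number stands for, so whether numbers pair the KO libraries was left unsettled. Pseudocounts of 1 and 0.01, 1 mean per group, no robust moderation and voom gave 61, 63, 79, 50 and 76. Leaving out 1 library gave 15 to 972 genes, with 972 without WT trained replicate 1, which had the lowest library weight (0.311). All 63 kept their direction in each of these fits that tested them, except Tpm1 after quantile normalization, which was at 0. The difference of responses passed for 1 gene after quantile normalization and for 0 to 2 when 1 library was left out, 2 without KO trained replicate 3. The listed read share difference lay between -4.28 and -3.04 percentage points when 1 library was left out. The causes were not tested.

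Genes that had not passed changed sign under a covariate. With the listed read share, the differences were 0.028 for Col5a3, 0.078 for Klf2, 0.043 for Irf7, 0.12 for Lyz2, 0.033 for Prx, 0.14 for Mbp, 0.0036 for Tagln, 0.11 for Mfap5, 0.034 for Gsn, 0.078 for Sdc4 and 0.056 for Klf5. With the GC contrast they were 0.036 for Bst2, 0.025 for Irf7, 0.043 for Lyz2, 0.023 for Pecam1, 0.039 for Prx, 0.13 for Mbp, 0.019 for Mfap5, 0.029 for Gsn, -0.031 for Twistnb and 0.21 for Klf5. On simulated data of this depth, which held no shifts in GC contrast or listed read share, 53.1% of the smallest changes drawn were recovered. Many small differences are therefore not detectable here.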
